A study of Mus musculus with 8 samples.

Results

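The subject is a set of 10 genes that fibroblasts use for the non-collagen part of the extracellular matrix, or by which fibroblasts are recognized: Dcn, Lum, Fn1, Pdgfra, Fap, Postn, Tnc, Fbln1, Mfap5 and Loxl1. They were chosen by symbol, and all 10 were found among the 33641 gene symbols of each library. They were measured by RNA-seq in tumor endothelial cells (TECs), sorted by FACS as CD45-CD31+ cells from microdissected mouse lung tumors at day 21. The tumors came from Lewis lung carcinoma (LLC), a mouse lung tumor line, placed by injection in the left lung. The 4 endFoxf1+/- libraries (H1 to H4) are from mice carrying Pdgfb-iCreER and Foxf1 fl/+, in which tamoxifen (3 mg by oral gavage at 6 to 8 weeks of age) activates a Cre driven by the Pdgfb promoter and exon 1 of 1 Foxf1 allele is lost in endothelium. The 4 control libraries (C1 to C4) carry only the label control. The study describes its controls in one place as littermates with either the floxed allele or the Cre alone and in another as C57Bl/6 wild type, and which applies to each library is not given. Both groups bore the same tumor line, and the study describes the mice given tumor cells as tamoxifen-treated. The values are TPM, transcript abundances scaled to a fixed total of 1000000 per library, which are corrected for transcript length and can therefore be compared between genes, but which keep no trace of sequencing depth.

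Fibroblasts build the stroma around tumor vessels. They secrete small leucine-rich proteoglycans such as decorin and lumican that coat collagen fibrils, fibronectin that joins cells to the matrix through integrins, elastic fiber proteins that are crosslinked by lysyl oxidases, and matricellular proteins such as periostin and tenascin C that tune adhesion during wound healing and in tumors. Endothelial cells are not a main source of decorin or lumican, whereas fibronectin is made by many cell types, endothelium among them.

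Promoter sequence was at hand for 4 of the 10 genes. The sequences of Postn, Tnc and Pdgfra are shown because these 3 had an unadjusted p under 0.05 between the groups, Postn with lower and Tnc and Pdgfra with higher levels in endFoxf1+/- TECs, while the other, Fbln1, was too low to be tested. Each is the stretch of 250 bases before the start of the gene, written 5′ to 3′ in the direction of transcription, from RefSeq on GRCm38.p6, with capitals marking the TATA box letters TATAAA. Postn lies at chr3:54360857-54361106 (plus strand), Tnc at chr4:64047016-64047265 (minus strand) and Pdgfra at chr5:75152001-75152250 (plus strand).
Postn: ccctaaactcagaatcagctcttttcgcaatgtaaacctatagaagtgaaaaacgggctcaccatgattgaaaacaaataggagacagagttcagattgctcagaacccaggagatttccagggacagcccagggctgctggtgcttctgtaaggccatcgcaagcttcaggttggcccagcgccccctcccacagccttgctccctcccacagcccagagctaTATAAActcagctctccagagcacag
Tnc: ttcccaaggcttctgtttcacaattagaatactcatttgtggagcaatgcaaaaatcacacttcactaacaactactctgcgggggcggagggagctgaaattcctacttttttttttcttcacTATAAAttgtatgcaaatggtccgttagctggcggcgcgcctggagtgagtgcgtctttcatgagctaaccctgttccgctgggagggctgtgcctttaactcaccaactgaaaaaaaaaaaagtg
Pdgfra: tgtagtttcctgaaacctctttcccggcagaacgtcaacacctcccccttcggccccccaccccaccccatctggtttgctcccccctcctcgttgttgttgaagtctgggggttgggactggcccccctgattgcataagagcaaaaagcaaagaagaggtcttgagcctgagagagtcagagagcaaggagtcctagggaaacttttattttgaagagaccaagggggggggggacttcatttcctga
In Postn the letters began 26 bases before the start, in Tnc 126 bases before it, and the Pdgfra stretch did not hold them. TATAAA, searched on both strands, stood in 12.4% of the 32841 promoter stretches of this length. The forkhead core TAAACA, also searched on both strands, stood in 12.0% of them and in 0 of the 7 stretches of Postn, Tnc, Pdgfra and Fbln1, some of which overlap. Absence of a match says only that these letters are not in these stretches.

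Some libraries stood apart before any of the 10 genes was considered. Foxf1, the targeted gene, was at 213 to 331 TPM in control and at 177, 203, 14.04 and 105 TPM in H1, H2, H3 and H4, below every control in all 4. The geometric mean of 20 endothelial markers was 479 and 496 TPM in H1 and H2, within the control range of 393 to 501 TPM, but it was 25.4 TPM in H3 and 256 TPM in H4. Among defining endothelial markers, Pecam1 was at 77.5 TPM in H3 and Cdh5 at 94.9 TPM, against at least 1061 and 1419 TPM in each control. Ptprc, a defining leukocyte marker, was at 16.5, 9.93, 91.2 and 6.61 TPM in H1 to H4 and at 2.94 to 9.13 TPM in control, so that H1, H2 and H3 were all above every control. Msln, a mesothelial marker, was at 15.8 TPM in H4 and at no more than 1.95 TPM in any other library. None of these defining markers was at 0 in any library. Fold changes of the members tested are therefore given with and without H3, and for several also without H3 and H4. TPM of a bulk sample cannot tell more cells of a type from more RNA per cell.

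In control TECs the 10 genes had a summed level of 79.7 to 129.6 TPM, and all 4 endFoxf1+/- libraries were higher, at 247 TPM in H1, 173 TPM in H2, 1564 TPM in H3 and 450 TPM in H4. The higher level was not shared by the whole set. Dcn, Lum and Fn1 were above every control in every endFoxf1+/- library, Pdgfra and Tnc in 3 of the 4, Fap, Mfap5, Loxl1 and Fbln1 overlapped with control, and Postn was below every control in every endFoxf1+/- library. By mean level the order in control was Fn1, Postn, Dcn, Lum, Mfap5, Fap, Pdgfra, Tnc, Loxl1 and Fbln1, and in endFoxf1+/- TECs Fn1, Dcn and Lum led, followed by Postn. In the control order, the ranges of Fn1 and Postn overlapped, Postn lay above Dcn and Dcn above Lum in all 4 libraries, and from Lum down to Fbln1 the ranges of neighbors overlapped.

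**Figure D1:**
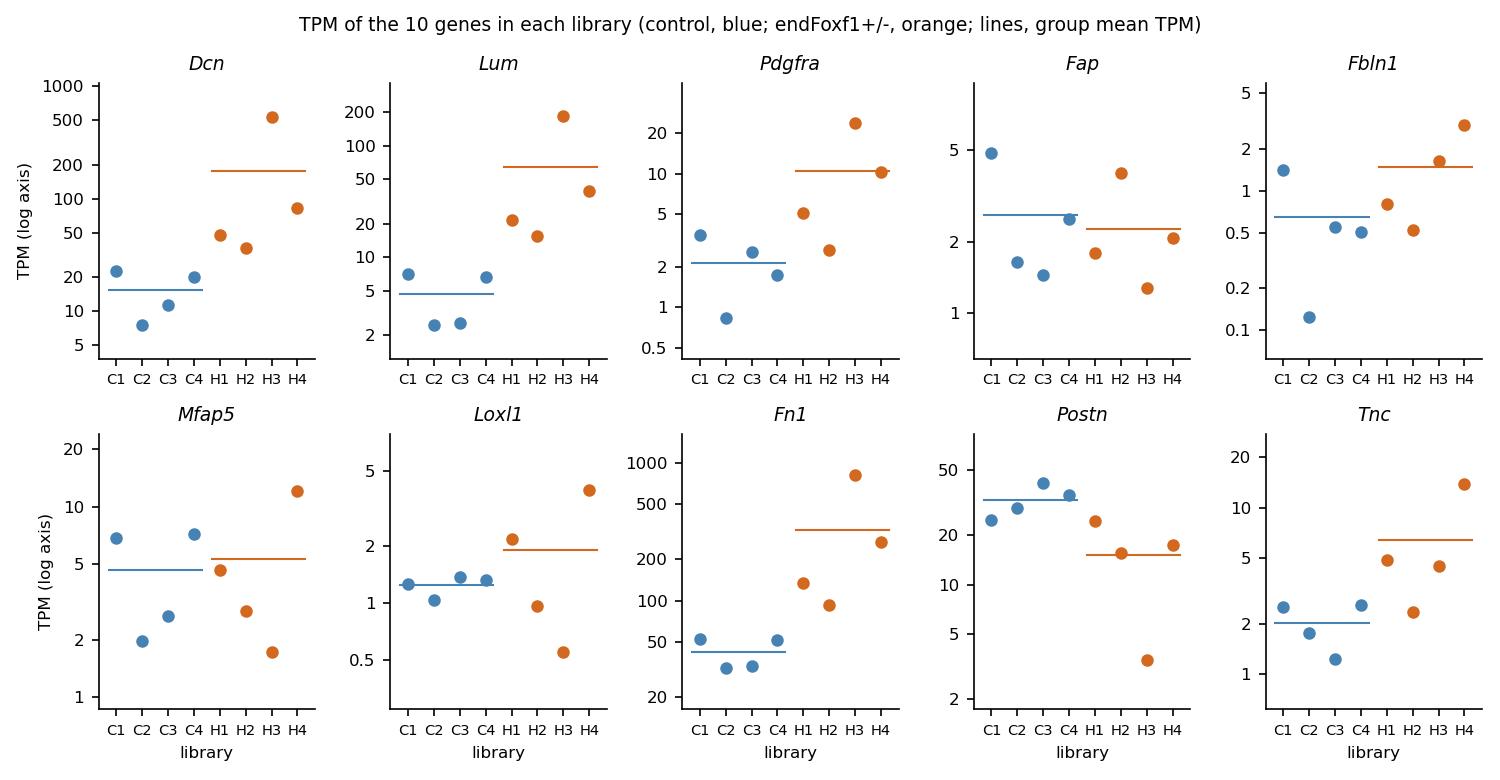
TPM of each gene in the 4 control libraries (blue, C1 to C4) and the 4 endFoxf1+/- libraries (orange, H1 to H4), on a log axis, each panel with a scale of its own; points are libraries and lines are group mean TPM. Orange points of Dcn, Lum and Fn1 all lie above the blue ones, those of Postn all lie below, and H3 is the highest library for 4 genes while H4 is the highest for another 4.

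No member passed at an adjusted p under 0.05, nor did any other of the 14964 genes tested (0.0% by limma, and 0.0% by the exact permutation test over 70 assignments of the libraries). At an unadjusted p under 0.05, 6 of the 9 members tested passed by limma, 5 higher and 1 lower, against 5.59% of all genes tested (836 genes, 2.82% higher and 2.77% lower). The groups did not overlap for 4 of the 9, 3 higher and 1 lower, against 5.04% of all genes (2.73% higher and 2.31% lower). Fbln1 was not tested, since it reached 1 TPM in only 3 libraries, and the test required 4. The adjusted p by limma was 0.790 for each of the 6, and the adjusted p of the exact test over all genes was 0.567 for each of the 4 that did not overlap. The median log2 fold change, taken as endFoxf1+/- minus control on the log2(TPM + 1) scale throughout, was 1.09 over the 9 members and -0.17 over all genes (-0.01 under quantile and median-ratio scaling). It was positive for 7 of the 9, against 32.0% of all genes, and its size exceeded 1 for 6 of the 9, against 7.67% of all genes.

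Dcn encodes decorin, a proteoglycan that binds collagen fibrils and holds TGF-beta. It was at 22.7, 7.64, 11.4 and 20.4 TPM in C1 to C4 and at 47.2, 36.6, 533 and 82.6 TPM in H1 to H4. The groups did not overlap, and H3 stood far above the other 3 endFoxf1+/- libraries. The means were 15.5 ± 7.16 TPM in control and 175 ± 239.6 TPM in endFoxf1+/- TECs (SD, n = 4 each). The log2 fold change of Dcn was 2.64 ± 0.76 (SE; 95% interval 0.93 to 4.35), with an unadjusted limma p of 0.00663 and an exact permutation p of 0.0286, the smallest that 4 against 4 libraries can give. Without H3 the log2 fold change was 1.81, and without H3 and H4 it was 1.48, with no overlap in either case. Groups did not overlap for 9.08% of all genes without H3 and for 24.5% without H3 and H4.

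Lum encodes lumican, which spaces collagen fibrils and lies next to Dcn on chromosome 10: Dcn occupies chr10:97479609-97518143 and Lum chr10:97565128-97572703, both on the plus strand of GRCm38 and 46984 bp apart. Lum was at 7.10, 2.45, 2.57 and 6.58 TPM in C1 to C4 and at 21.4, 15.3, 183 and 39.7 TPM in H1 to H4. All 4 endFoxf1+/- libraries lay above control, again with H3 far above the rest. The log2 fold change of Lum, 2.96 ± 0.70 (SE; 95% interval 1.38 to 4.53), was the highest of the 9 members tested, with an unadjusted limma p of 0.00202 and an exact permutation p of 0.0286. It was 2.23 without H3 and 1.87 without H3 and H4.

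The 2 proteoglycans did not keep their proportion. Lum per Dcn, the ratio of their TPM, was 0.313, 0.321, 0.226 and 0.323 in C1 to C4 and 0.453, 0.419, 0.344 and 0.480 in H1 to H4, so that it was higher in each endFoxf1+/- library than in each control. This ratio was chosen after the values were seen and was not tested. The next gene after Lum, Kera, which encodes the related proteoglycan keratocan, starts 34175 bp beyond it and was at no more than 0.548 TPM outside H3, where it was at 3.16 TPM. Epyc, a further member of the family on this chromosome, was listed at 0 in every library but H3, where it was at 0.218 TPM.

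Fn1, fibronectin, was the most abundant of the 10 transcripts in every library except C3, where Postn was. It was at 52.3, 32.8, 33.4 and 51.7 TPM in C1 to C4 and at 135, 92.5, 810.5 and 265 TPM in H1 to H4. No endFoxf1+/- library came near the highest control. The log2 fold change of Fn1 was 2.43 ± 0.59 (SE; 95% interval 1.10 to 3.76), with an unadjusted limma p of 0.00237 and an exact permutation p of 0.0286. Without H3 it was 1.82, and without H3 and H4 it was 1.41. An antisense gene overlaps exons of Fn1, and since the strand of counting is not given, reads of the pair cannot be told apart.

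With array weights, which let limma give less weight to libraries that scatter (0.0643 for H3 and 0.178 for H4, 1.17 to 3.85 for the others), Lum (adjusted p 0.0335, log2 fold change 2.12) and Fn1 (adjusted p 0.0286, log2 fold change 1.63) passed among 148 genes, and Dcn had an adjusted p of 0.0539. Under the other alternatives, which are listed with the processing, no member passed.

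**Figure D2:**
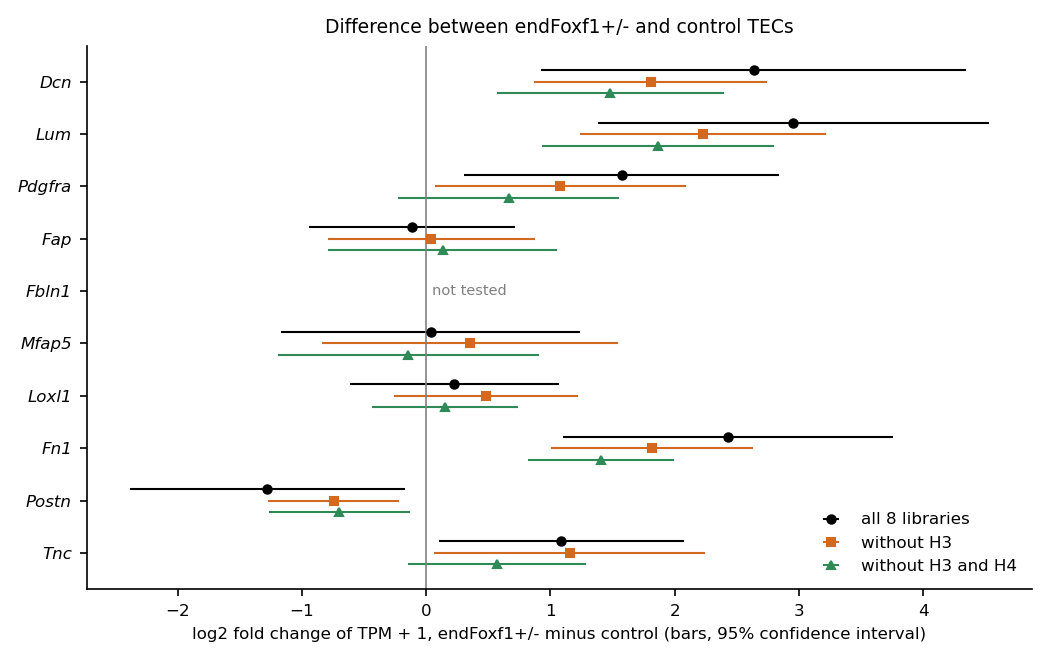
Log2 fold change of TPM + 1, endFoxf1+/- minus control, for the 9 genes tested (points; bars, 95% confidence interval by limma), with all 8 libraries (black), without H3 (orange) and without H3 and H4 (green). Dcn, Lum and Fn1 lie above 0 and Postn below 0 with each set of libraries, whereas the intervals of Pdgfra and Tnc reach below 0 once H3 and H4 are left out.

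Pdgfra encodes the alpha receptor for PDGF, a surface protein by which fibroblasts are sorted and which drives their growth. It was at 3.46, 0.828, 2.61 and 1.73 TPM in C1 to C4 and at 5.12, 2.68, 23.9 and 10.2 TPM in H1 to H4. H1, H3 and H4 were above every control, and H2 was below C1. Pdgfra had a log2 fold change of 1.57 ± 0.57 (SE; 95% interval 0.30 to 2.84), with an unadjusted limma p of 0.0205 and an exact permutation p of 0.0571. It was 1.08 without H3 and 0.66 without H3 and H4, where the unadjusted limma p was 0.123, and the p was also above 0.05 without C2 (0.0594) or H4 (0.0537). Antisense genes overlap exons of Pdgfra, and the reads cannot be told apart.

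The ligands of PDGF receptors were mixed. Of 4 ligand genes tested, 0 passed at an unadjusted p under 0.05 and 0 were without overlap, with a median log2 fold change of -0.59. Without H3 the median was -0.12, 1 ligand was higher at an unadjusted p under 0.05, and 1, Pdgfa, was lower without overlap. With H3 left out, 7.16% of all genes had an unadjusted p under 0.05 and 9.08% did not overlap, in either direction. Pdgfa, which binds the alpha receptor, was at 33.6 ± 1.93 TPM in control and 29.5 ± 3.66 TPM in endFoxf1+/- TECs (SD, n = 4 each). Pdgfc, another ligand of the alpha receptor, was at 0.850, 0.814, 0.6996 and 1.0007 TPM in C1 to C4 and at 2.45, 2.47, 26.7 and 1.0001 TPM in H1 to H4. H1, H2 and H3 were above every control, H4 was not, and H3 was the highest, as for Pdgfra. The log2 fold change of Pdgfc was 1.47 (95% interval -0.12 to 3.05), with an unadjusted limma p of 0.0657. Pdgfc was named after its values were seen.

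Fap, fibroblast activation protein, is a serine protease on the surface of activated tumor fibroblasts. It was at 4.83, 1.65, 1.45 and 2.53 TPM in C1 to C4 and at 1.802, 3.96, 1.27 and 2.08 TPM in H1 to H4. The ranges of the groups overlapped, with C1 above every endFoxf1+/- library and H3 below every control, and H3, the library with the most Dcn and Lum, had the lowest Fap of the 8. Fap had a log2 fold change of -0.11 (95% interval -0.94 to 0.71), with an adjusted limma p of 0.935, and the sign turned positive under quantile and median-ratio scaling (0.06 and 0.01) and without H3 (0.04).

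Among the matricellular genes, Postn and Tnc went opposite ways. Postn, periostin, is secreted by activated fibroblasts and binds integrins. It was at 24.7, 29.5, 41.7 and 35.04 TPM in C1 to C4 and at 24.3, 15.5, 3.48 and 17.5 TPM in H1 to H4. Every endFoxf1+/- library was below every control, H1 by a narrow margin, and H3 was by far the lowest. The means of Postn were 32.7 ± 7.32 TPM in control and 15.2 ± 8.66 TPM in endFoxf1+/- TECs (SD, n = 4 each). The log2 fold change of Postn was -1.28 ± 0.49 (SE; 95% interval -2.39 to -0.17), with an unadjusted limma p of 0.0277 and an exact permutation p of 0.0286. It was -0.75 without H3, and -0.70 without H3 and H4, with no overlap in either case (all genes, 9.08% and 24.5% without overlap). The unadjusted limma p was 0.0697 without C3 and 0.0583 without C4.

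Markers of pericytes and smooth muscle, cells that can also make periostin, were lower in some of these libraries. Their summed TPM was 90.6 to 114 in control and 99.0, 77.9, 35.9 and 40.4 in H1 to H4, so that H1 was within the control range. Without Tagln the sum was 59.4 to 78.8 TPM in control and 54.7, 38.3, 32.2 and 34.6 TPM in H1 to H4, all below every control. Tagln was left out of this sum with its values known, the sum was not tested, and the full list did not separate the groups. Of 8 tested, 0 were higher and 3 lower at an unadjusted p under 0.05 (all genes, 2.82% and 2.77%), and 2 were lower without overlap (all genes, 2.31%): Rgs5 (18.9, 17.9, 15.1 and 10.7 TPM in C1 to C4 against 3.71, 3.73, 0.602 and 6.66 TPM in H1 to H4) and Myh11 (4.50 ± 0.761 against 1.79 ± 1.14 TPM). The smooth muscle genes Tagln and Acta2 did not share this: Tagln was at 44.3 and 39.7 TPM in H1 and H2, above the control range of 27.9 to 35.4 TPM, and at 3.73 and 5.85 TPM in H3 and H4, and Acta2 overlapped with control (log2 fold change 0.15). Of the markers too low to be tested, Kcnj8 and Abcc9 had differences in mean log2(TPM + 1) of 0.28 and 0.25, and Cnn1 one of -0.08. The part of pericytes and smooth muscle in the level of Postn was not tested.

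Tnc, tenascin C, is a large adhesion-modulating glycoprotein of wounds and tumor stroma. It was at 2.52, 1.77, 1.23 and 2.60 TPM in C1 to C4 and at 4.83, 2.35, 4.49 and 13.9 TPM in H1 to H4. H1, H3 and H4 were above every control, with H4 the highest, and H2 lay within the control range. Tnc had a log2 fold change of 1.09 ± 0.44 (SE; 95% interval 0.10 to 2.07), with an unadjusted limma p of 0.0344 and an exact permutation p of 0.0857. Without H3 it was 1.15. Without H4 it was 0.67, and the unadjusted limma p was 0.0613. Leaving out C2, C3 or H1 gave an unadjusted limma p of 0.0710, 0.0891 and 0.0535. Without H3 and H4 the log2 fold change was 0.57, with an unadjusted limma p of 0.102. A transcript on the opposite strand overlaps exons of Tnc, with the same limit on its reads.

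The 3 elastic fiber genes were at no more than 12.1 TPM in any library and did not separate the groups. Mfap5, a microfibril protein that binds fibrillin, was at 6.82, 1.96, 2.67 and 7.19 TPM in C1 to C4 and at 4.62, 2.84, 1.73 and 12.1 TPM in H1 to H4. H4 held the highest level of Mfap5 and H3 the lowest. Its log2 fold change was 0.04 (95% interval -1.17 to 1.24), with an adjusted limma p of 0.988, and it was 0.35 without H3 and -0.40 without H4.

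Loxl1, a lysyl oxidase that crosslinks elastin, was at 1.27, 1.04, 1.38 and 1.33 TPM in C1 to C4 and at 2.18, 0.963, 0.551 and 3.96 TPM in H1 to H4. Control libraries were alike, whereas 2 endFoxf1+/- libraries lay above them and 2 below. Loxl1 had a log2 fold change of 0.23 (95% interval -0.61 to 1.07), with an adjusted limma p of 0.864, and it was 0.48 without H3 and -0.08 without H4. Fbln1, fibulin 1, a glycoprotein bound to fibronectin and elastic fibers, was at 1.41, 0.126, 0.548 and 0.511 TPM in C1 to C4 and at 0.808, 0.521, 1.65 and 2.97 TPM in H1 to H4. H3 and H4 were above all controls, and the exact permutation p was 0.171.

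H3 and H4, the libraries with the lowest endothelial marker levels, differed from each other in which of the 10 genes were high. Dcn, Lum, Fn1 and Pdgfra reached their highest level in H3, and Tnc, Fbln1, Mfap5 and Loxl1 reached theirs in H4. The highest Fap was in C1 and the highest Postn in C3. Dcn in H3 was 34.4 times the control mean and Lum 39.3 times, against 5.32 and 8.49 times in H4. In H1 and H2, where the summed endothelial markers were within the control range and Ptprc was above every control, Dcn was 3.05 and 2.36 times the control mean, Lum 4.58 and 3.28 times, Fn1 3.17 and 2.18 times, and Postn 0.742 and 0.473 times.

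As a result the make-up of the 10 transcripts differed. Dcn, Lum and Fn1 together held 64.6%, 53.8%, 47.9% and 60.7% of the summed TPM in C1 to C4 and 82.3%, 83.4%, 97.6% and 86.1% in H1 to H4. Postn held 19.4%, 37.0%, 42.1% and 27.0% in C1 to C4 and 9.82%, 8.93%, 0.222% and 3.89% in H1 to H4. Neither pair of ranges overlapped. Postn per Fn1, the ratio of their TPM, was 0.472 to 1.25 in control and 0.180, 0.167, 0.00429 and 0.0660 in H1 to H4. These shares and ratios follow from the levels above and are not further tests.

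**Figure D3:**
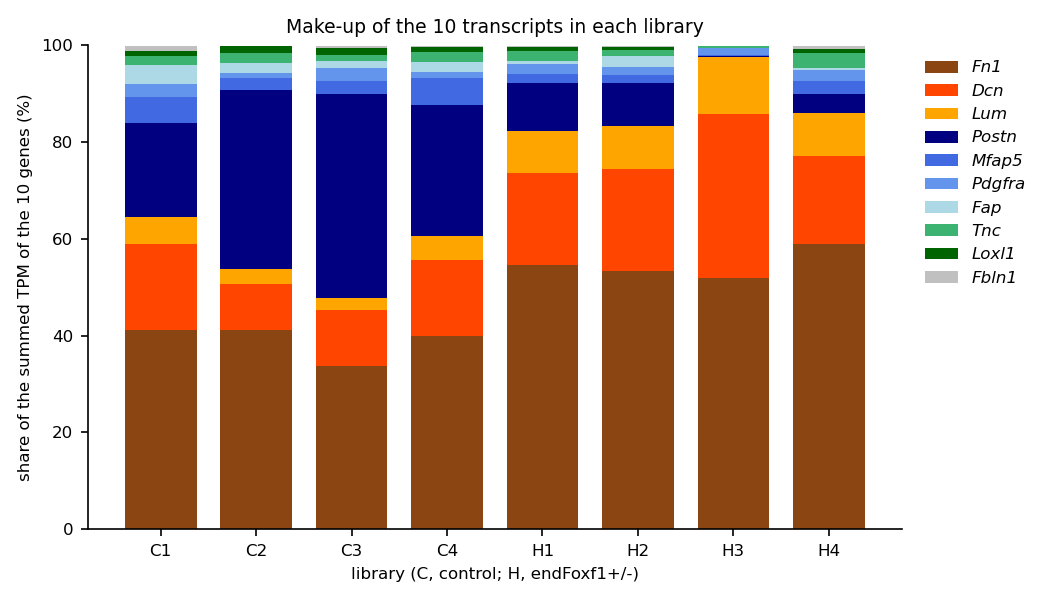
Share of each gene in the summed TPM of the 10 genes (percent, stacked bars that add up to 100%) in the 4 control and 4 endFoxf1+/- libraries. The joint share of Fn1, Dcn and Lum (brown, red and orange) runs from 47.9% to 64.6% in control and from 82.3% to 97.6% in endFoxf1+/- libraries, and the share of Postn (navy) from 19.4% to 42.1% and from 0.222% to 9.82%.

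The levels were next set against the fibrillar collagens Col1a1, Col1a2 and Col3a1, the main structural products of fibroblasts, as the difference between a gene's log2(TPM + 1) and the mean of the 3 collagens in the same library. The mean of the 3 collagens was itself higher by 1.19 in endFoxf1+/- TECs, and the median difference over all genes tested was -1.36 on this scale. Groups did not overlap for 0.0334% of all genes in the higher direction and for 3.94% in the lower. On this scale Lum was still higher in every endFoxf1+/- library, by 1.77 on average (exact permutation p 0.0286). Postn was lower in all 4, with a mean difference of -2.47 (exact permutation p 0.0286), and so was Mfap5, with one of -1.15 (exact permutation p 0.0286), which is nearer to 0 than the median of all genes. With a pseudocount of 0.1 in place of 1, neither passed (exact permutation p 0.0571 for Postn and 0.171 for Mfap5). Dcn (1.45, exact permutation p 0.0857) and Fn1 (1.24, exact permutation p 0.0571) overlapped, although both passed with a pseudocount of 5 (exact permutation p 0.0286 each), as did Fn1 without H1. Pdgfra (0.39) and Tnc (-0.10) had exact permutation p-values of 0.429 and 0.771, and both changed sign under some alternatives. Fap (-1.30, exact permutation p 0.143), Fbln1 (-0.64, exact permutation p 0.0571) and Loxl1 (-0.96, exact permutation p 0.0857) overlapped, and without H2 Fap and Fbln1 each had an exact permutation p of 0.0286. Without H3 the difference was 1.19 for Lum, -1.79 for Postn and -0.69 for Mfap5, and none of the 3 passed (exact permutation p 0.0571, 0.0571 and 0.143). Lum also no longer passed without C1 or H2 (exact permutation p 0.0571 each) or without C2 or C3 (0.0857 each). The collagens themselves were not level with each other in H3, where Col3a1 was at 556 TPM, Col1a1 at 12.3 TPM and Col1a2 at 2.39 TPM.

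Covariation was examined over the 8 libraries for all 45 pairs of the 10 genes, with Pearson's r and Spearman's rho of log2(TPM + 1), exact permutation p-values and adjustment over the 45 pairs. The r was positive for 31 pairs and negative for 14, above 0.7 for 12 and below -0.7 for 4. By Pearson's r 15 pairs had p under 0.05 and 10 an adjusted p under 0.05, and by rho 18 and 10 did. All pairs share their libraries, and r over both genotypes includes the difference between the groups.

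Dcn, Lum and Fn1 were ordered identically over the 8 libraries, with a rho of 1 for each of their 3 pairs (exact permutation adjusted p 7.44e-04). Dcn and Lum had an r of 0.991 (exact permutation adjusted p 3.72e-04, from the smallest p that the permutations can give), which was 0.998 without C2 and H3, the 2 libraries farthest from the median of Dcn, and 0.991 on deviations from the group means. Lum and Fn1 had an r of 0.995, which was 0.989 without H3 and H4 and 0.984 on the deviations. Dcn and Fn1 had an r of 0.985, which was 0.991 without C2 and H3. The order thus held among control libraries too, where C1 was the highest and C2 the lowest for all 3. Among the 14963 other genes tested, Fn1 ranked 2 by r with Lum, and Lum ranked 6 by r with Dcn. The best-ranked member was far lower for the others, at 44 for Pdgfra, 247 for Mfap5, 624 for Tnc, 686 for Loxl1, 7014 for Fap and 9399 for Postn.

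Pdgfra followed these 3, with an r of 0.955 with Dcn, 0.940 with Lum and 0.952 with Fn1 (exact permutation adjusted p 0.00558, 0.00707 and 0.00558). Without the 2 farthest libraries these were 0.825, 0.725 and 0.731. Postn ran opposite, with an r of -0.926 with Dcn (rho -0.857, exact permutation adjusted p 0.0191 and 0.0482), -0.911 with Lum (rho -0.857, exact permutation adjusted p 0.0150 and 0.0482) and -0.903 with Fn1 (rho -0.857, exact permutation adjusted p 0.0191 and 0.0482). Without the 2 farthest libraries they were -0.816, -0.719 and -0.682, and on deviations from the group means -0.860, -0.847 and -0.824.

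Mfap5 and Loxl1 formed a looser pair, with an r of 0.796 (exact permutation adjusted p 0.0518), and Fbln1 and Tnc had an r of 0.838 (exact permutation adjusted p 0.0423) that was 0.409 without the 2 farthest libraries. How Mfap5 and Loxl1 related to the proteoglycans rested on H3: the r of Dcn was -0.04 with Mfap5 and -0.07 with Loxl1 over all 8 libraries, and 0.70 and 0.75 without H3. Without H3, chosen after the data were seen, 34 pairs were positive and 26 of the 45 were above 0.7. Over all 8 libraries Fap had no r above 0.404 with any of the others, the highest being with Mfap5 (rho 0.690, exact permutation adjusted p 0.156). Without C1 and H2, the 2 libraries farthest from the median of Fap, the r of Fap and Mfap5 was 0.822.

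**Figure D4:**
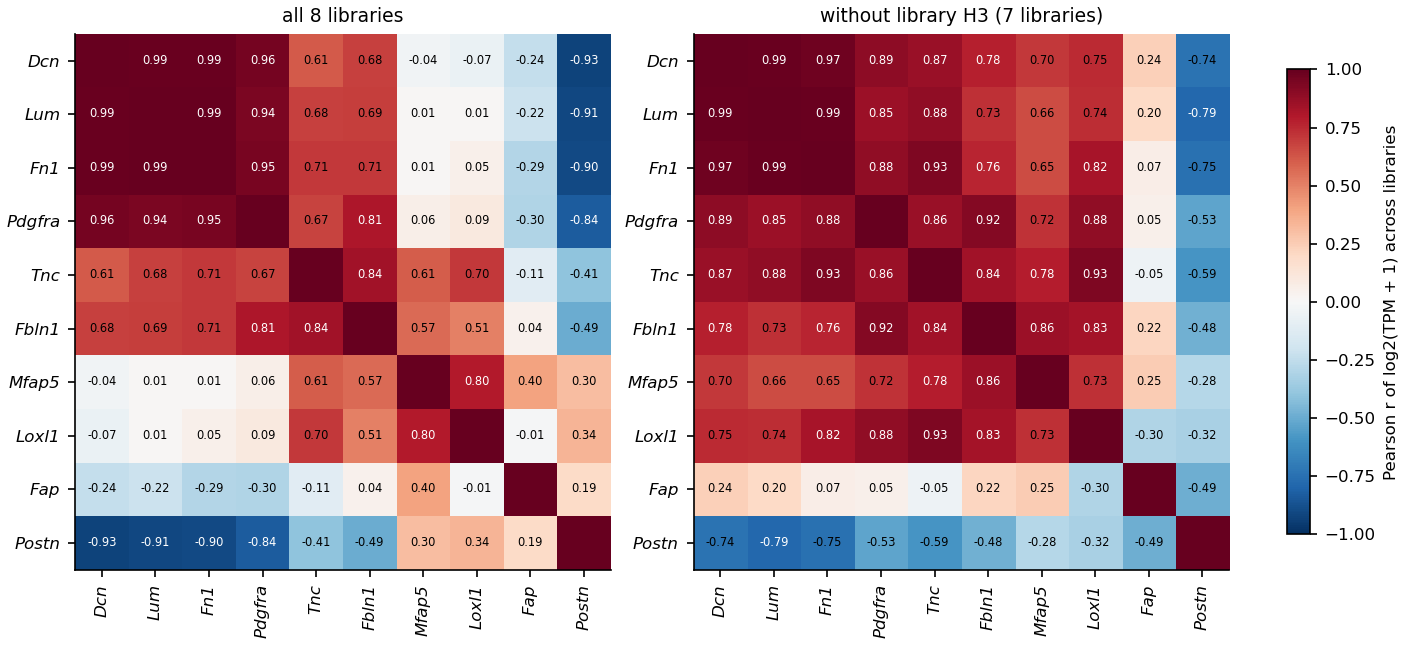
Pearson r of log2(TPM + 1) for each pair of the 10 genes, over all 8 libraries (left) and without library H3 (right), on a color scale from -1 (blue) to 1 (red). Dcn, Lum, Fn1 and Pdgfra form a red block, with which Postn is blue, in both panels, while Mfap5 and Loxl1 join the block only in the right panel, and Fap stays pale with these 4 genes in both.

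Outside the set, the 10 tested genes most like the mean log2(TPM + 1) of the 10 members over the 8 libraries were Rap2c (r 0.991), Nifk, Sdad1, Smc2, Mpp6, Fgfr1op, Bzw1, Ece2, Alg8 and Spsb1 (r 0.970). Rap2c was at 19.8 to 24.5 TPM in control and at 24.3 to 37.2 TPM in endFoxf1+/- libraries, a far narrower span than that of Dcn. None of the 10 is a matrix gene.

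Other genes of the matrix, from lists written for the purpose, were read from the same fit. Over all genes tested, 2.82% were higher and 2.77% lower at an unadjusted p under 0.05. Without overlap, 2.73% were higher and 2.31% lower. In the list of proteoglycans, which also holds the basement membrane glycoprotein gene Nid1, 3 of 8 tested were higher at an unadjusted p under 0.05 and 0 lower, and the same count was without overlap, with a median log2 fold change of 0.59. Vcan, the large hyaluronan-binding proteoglycan versican, was at 4.64, 1.61, 1.87 and 3.56 TPM in C1 to C4 and at 10.2, 6.52, 60.5 and 20.9 TPM in H1 to H4, the same order of endFoxf1+/- libraries as Dcn and Lum. Hspg2, the basement membrane proteoglycan perlecan, was at 8.19 ± 2.93 TPM in control and 26.7 ± 14.9 TPM in endFoxf1+/- TECs (SD, n = 4 each), and Aspn, a close relative of decorin, at 0.913 ± 0.419 and 6.26 ± 7.51 TPM. Aspn was at 17.4 TPM in H3 and at 1.42 to 4.18 TPM in the other endFoxf1+/- libraries. Bgn, biglycan, the nearest relative of decorin and the most abundant of the list, was at 152 ± 24.8 and 133 ± 48.4 TPM, and overlapped.

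Of 12 matricellular and adhesive genes tested, 3 were higher and 1 lower without overlap, against 2.73% and 2.31% of all genes. The median log2 fold change was -0.13. Sparc and Sparcl1, the most abundant of the list, overlapped, with log2 fold changes of 0.25 and -0.55. Thbs2, thrombospondin 2, was at 1.38 ± 0.620 TPM in control and 19.9 ± 24.8 TPM in endFoxf1+/- TECs. Tgfbi, a TGF-beta induced adhesion protein, was at 11.3 ± 3.05 and 68.0 ± 90.9 TPM, and Spp1, osteopontin, which macrophages also make, at 82.8 ± 19.1 and 475.8 ± 625.8 TPM. H3 raised these means: Thbs2, Tgfbi and Spp1 were at 56.5, 204 and 1414 TPM in it. In the other endFoxf1+/- libraries they were at 4.12 to 13.8, 19.3 to 25.3 and 136 to 203 TPM. Vtn, vitronectin, was lower, at 2.63 ± 1.24 and 0.612 ± 0.455 TPM (SD, n = 4 each). Of 17 elastic fiber and crosslinking genes, 3 were higher and 0 lower at an unadjusted p under 0.05 (all genes, 2.82% and 2.77%). None were without overlap, and the median was -0.05.

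Of 9 collagen genes tested, 4 were higher and 0 lower at an unadjusted p under 0.05 (all genes, 2.82% and 2.77%). Col3a1 (26.5 ± 13.1 against 198 ± 240.6 TPM) and Col6a1 (6.78 ± 2.03 against 34.1 ± 33.4 TPM) were without overlap. They were at 556 and 81.2 TPM in H3, and at 44.4 to 118 and 8.83 to 34.3 TPM in the other endFoxf1+/- libraries. Of 9 integrin subunits that bind fibronectin, periostin or tenascin, 1 was higher at an unadjusted p under 0.05, Itgav (20.8 ± 1.95 against 33.5 ± 9.99 TPM), which was also without overlap, and the median was -0.12. Of 15 other fibroblast identity and surface genes, 6 were higher and 0 lower at an unadjusted p under 0.05, with a median log2 fold change of 0.16. Dpt (4.44 ± 2.03 against 40.1 ± 49.9 TPM), Serpinf1 (11.4 ± 7.19 against 115 ± 155 TPM), Prrx1, Twist1 and Pdpn were without overlap, all higher. H3 was the highest library for each of them. Dpt and Serpinf1 were at 114 and 347 TPM in H3, and at 9.03 to 23.4 and 26.5 to 55.9 TPM in the other endFoxf1+/- libraries. Thy1 and Pdgfrb overlapped, with log2 fold changes of -0.37 and -0.39, and Col15a1, Pi16, Timp2 and Tcf21 were also below 0. Without H3, where 7.16% of all genes had an unadjusted p under 0.05 in either direction, the fibroblast list had 6 higher and 0 lower at an unadjusted p under 0.05, the proteoglycans 3 and 0, the collagens 3 and 0, the elastic fiber genes 1 and 0, and the matricellular genes 4 and 1.

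**Figure D5:**
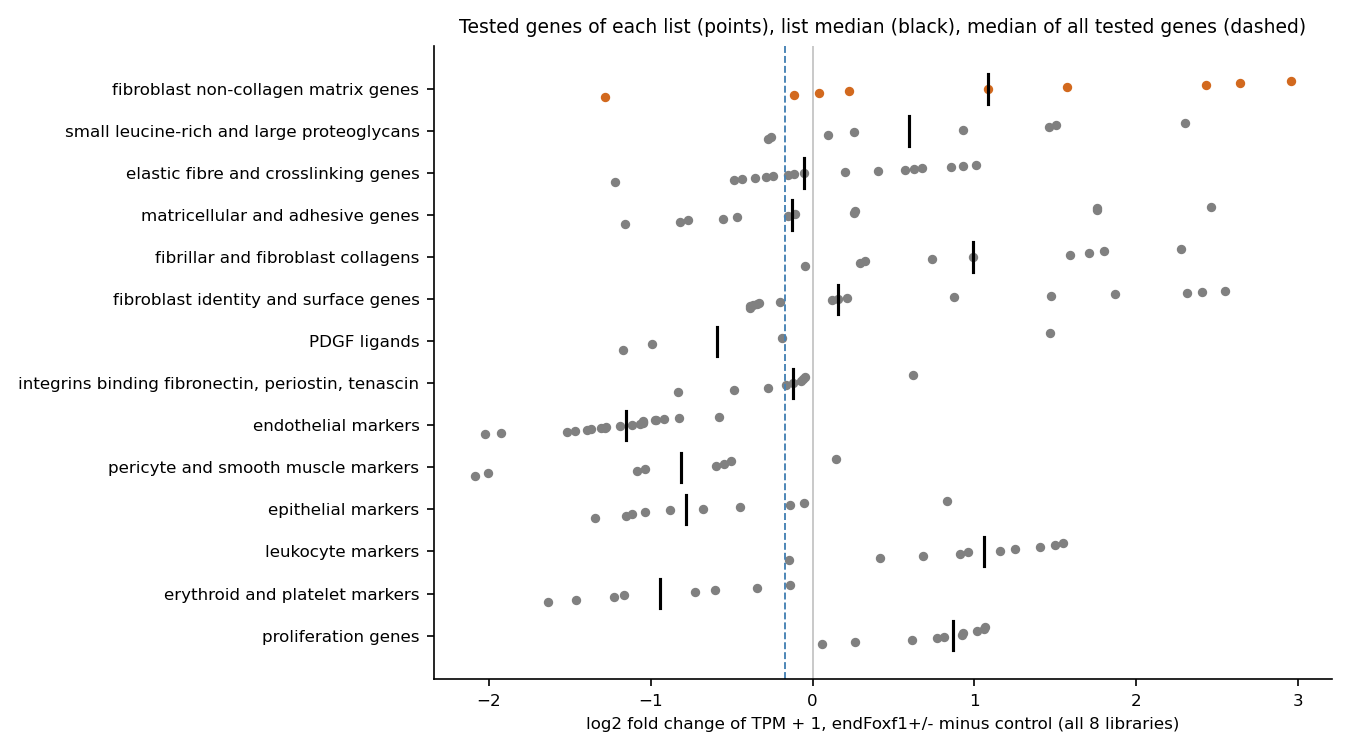
Log2 fold change of TPM + 1, endFoxf1+/- minus control, for each tested gene of the 10 members (orange) and of the lists of matrix genes, receptors and cell type markers (gray), with the median of each list (black bar) and of all 14964 genes tested (dashed line, -0.17). The members spread from -1.28 to 2.96, further to the high side than any other list shown, and the endothelial markers lie below the dashed line.

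Markers of other cell types differed between the same libraries, and their part in the levels of the 10 genes was not tested. Endothelial markers had 0 of 20 higher and 2 lower at an unadjusted p under 0.05, with a summed level of 14581 to 18905 TPM in control and 16767, 17744, 835 and 8453 TPM in H1 to H4, and Cldn5 was lower without overlap. Leukocyte markers had 1 of 10 higher at an unadjusted p under 0.05, Cd68 (46.7 ± 14.4 against 195 ± 219 TPM, no overlap), and summed to 1449 to 5055 TPM in control and 2524, 1746, 7775 and 4611 TPM in H1 to H4. Their log2 fold change was positive for 9 of 10, with a median of 1.06, and the median was 0.375 without H3. Mesothelial markers summed to 1.95 to 5.97 TPM in control and to 29.4 TPM in H4, with 1.86 to 4.27 TPM in the other 3. Epithelial markers had 0 of 10 past an unadjusted p of 0.05, with sums of 6635 to 31297 TPM in control and 1586 to 23837 TPM in endFoxf1+/- libraries. Erythroid and platelet markers had 4 of 8 lower, and proliferation genes 5 of 10 higher, with Mki67 at 14.04 ± 1.74 against 31.9 ± 16.8 TPM (all genes, 2.77% lower and 2.82% higher at an unadjusted p under 0.05). The log2 fold change was negative for 8 of 8 erythroid and platelet markers (median -0.94) and positive for 10 of 10 proliferation genes (median 0.87). It was negative for 20 of 20 endothelial markers (median -1.15, and -0.21 without H3) and for 9 of 10 epithelial markers (median -0.78, and -0.25 without H3). In H1 and H2 alone, Dcn, Lum and Fn1 were above and Postn below every control. The sums of the endothelial and mesothelial markers were then within the control range. Of 20 endothelial markers, 4 were higher and 1, Cldn5, lower without overlap, against 24.5% of all genes in either direction. Wt1, the mesothelial marker that could be tested, was at 3.03 and 2.98 TPM against at most 2.22 TPM in control. Of 8 pericyte and smooth muscle markers, 1 was higher and 3 lower at an unadjusted p under 0.05. In the same comparison 5 of 9 leukocyte markers tested were higher at an unadjusted p under 0.05 (6 without overlap), and so were 8 of 10 proliferation genes (8 without overlap), against 12.2% of all genes in either direction (1782 genes, 1449 of them higher). Among them Csf1r, a macrophage receptor, was at 6.91 and 7.80 TPM in H1 and H2 and at no more than 3.99 TPM in control. With only these 2 libraries against 4, the groups did not overlap for 24.5% of all genes tested, and with H3 alone left out for 9.08%.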

How the data were processed

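RNA-seq of 4 control and 4 endFoxf1+/- TEC samples was used, with groups from the sample labels. The authors deposited TPM per gene symbol, corrected for transcript length and scaled to 1000000 per library. The submitters' processing notes name TopHat, Cufflinks, Subread and DESeq2, with GRCm38 and mm10. Which tool made the TPM, and the annotation, are not given in the sources used here. TPM keep no depth, so precision rests on the spread between libraries, and the labels do not say that the libraries are from separate mice. The study describes its replicates as biological and plots 3 RNA-seq samples per group for some genes. All 4 per group were used here. No 2 libraries held identical values.

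TPM were analyzed as log2(TPM + 1), which understates changes of low genes, in R 4.3.3 with limma 3.58.1 (eBayes with trend). The 14964 genes with at least 1 TPM in at least 4 libraries were tested, two-sided, with Benjamini-Hochberg adjustment over all of them. Single genes were also compared by exact two-sided permutation of the difference in means over 70 assignments, and pairs by exact permutation of pairings, in Python 3.11.15 with scipy 1.17.1. The fit was tested on simulated data. Coordinates are from GENCODE on GRCm38, and promoter sequences from RefSeq on GRCm38.p6.

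Alternatives were other pseudocounts, filters and scalings (quantile, median-ratio), no trend, array weights, and libraries left out. The members, lists and tests were chosen with earlier results of these data known. Besides the members, the text names some, not all, of the 3 most abundant and of the non-overlapping genes of a list. It also names the targeted gene, the genes most alike and the neighbors of Dcn and Lum. Defining markers and other genes of the lists were added for description. The study's DESeq2 test needs counts and was not repeated.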

Additional observations from a re-analysis of the deposited data

Results flagged for a closer look

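Dcn and Lum each had 1 library far from the other 3 of its group by Dixon's criterion for 4 samples. The criterion was taken on TPM, not on log2(TPM + 1) as in the tests above, and the log2 scale was not examined. Dcn was at 533.044 TPM in endFoxf1+/- library H3, against 36.6 to 82.6 TPM in the other 3. Lum was at 183.499 TPM in H3, against 15.3 to 39.7 TPM in the other 3. In all, 20 groups of 4 libraries (10 genes in 2 groups) were examined. Chance marks about 1 in 20 if values are normally distributed, which was not tested for TPM. H3 is also the library with the lowest endothelial and the highest leukocyte marker levels, and the part of this in its Dcn and Lum levels was not tested. Without H3, both genes were still above every control in the remaining 3 endFoxf1+/- libraries, and the groups did not overlap for 9.08% of all genes.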

How the results depend on the processing

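TPM hold no depth, so what sequencing depth limits cannot be given. The limma test found 0 of 14964 genes with an adjusted p under 0.05 (836 at an unadjusted p under 0.05, and 0 by the exact test), 148 with array weights and 2 without libraries H3 and H4, and 0 to 1 when each library was left out in turn; the remaining alternatives gave 0. Of 148 alternative log2 fold changes of the members, 11 changed sign, all of them in Fap, Mfap5 and Loxl1. Fap was at 0.0592 under quantile normalization, 0.0144 under median-ratio scaling, 0.0666 with array weights, 0.13 without H3 and H4, and -0.33 to 0.15 with each library left out. Mfap5 was at -0.14 without H3 and H4 and at -0.40 to 0.35 with each library left out, and Loxl1 at -0.0780 to 0.48. The corresponding ranges were 1.81 to 3.08 for Dcn, 2.23 to 3.40 for Lum, 1.82 to 2.86 for Fn1, 1.08 to 1.997 for Pdgfra, 0.67 to 1.39 for Tnc and -1.58 to -0.75 for Postn. Members at an unadjusted p under 0.05 numbered 4 to 6 over the alternatives (all genes, 2.83% without C2 to 19.2% with array weights), and members whose groups did not overlap 4 to 6 (all genes, 3.8% with no filter to 24.5% without H3 and H4). Of all genes at an unadjusted p under 0.05, 2275 of 2866 were higher with array weights and 1449 of 1782 without H3 and H4. The members tested numbered 9, except 4 with a minimum TPM of 5 and 10 with no filter. Relative to the 3 collagens, Pdgfra was at -0.0708 with a pseudocount of 5 and Tnc at 0.12 with a pseudocount of 0.1 (-0.25 to 0.12 with each library left out). With a pseudocount of 0.1, Mfap5 (-1.22, exact permutation p 0.171) and Postn (-2.62, exact permutation p 0.0571) no longer passed on that scale. With each library left out, the difference relative to the collagens was 1.19 to 2.05 for Lum, -1.37 to -0.69 for Mfap5 and -2.93 to -1.79 for Postn, each past the threshold only in some. The cause of these changes was not tested. Positive pairs numbered 28 to 37 under the alternatives, against 31. No paired analysis was possible because the labels number no replicates and tie no control sample to an endFoxf1+/- sample by litter, batch or day.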
